A study of Mus musculus with 11 samples.

Results

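The transcripts of 10 heat shock proteins and co-chaperones were followed in mononuclear phagocytes of the mouse epididymis. They are the rows of the deposited expression table named Hspa1a, Hspa1b, Hspa5, Hspa8, Hsp90aa1, Hsp90ab1, Hsph1, Dnaja1, Dnajb1 and Hspb1, which makes 10 of its 37583 genes. The cells were EGFP+ CX3CR1+ mononuclear phagocytes, a class of macrophages, monocytes and related dendritic cells, and they were purified by a double sort. Every library was from 12-week-old mice of genotype CX3CR1 EGFP +/-, whose EGFP is driven by the CX3CR1 gene, so that a cell enters the sort through that promoter. The 3 groups were the initial segments (IS, 4 libraries), the caput/corpus (3 libraries) and the cauda (4 libraries) of the epididymis, the duct in which sperm mature and are stored, and each library pooled 4 epididymides. No treatment, allele or agent differs between the groups in the labels, so the comparisons are between regions. The labels do not say which animals went into which library, and p-values therefore measure the spread between these libraries only.

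Heat shock proteins hold other proteins in a folded state, refold those that have unfolded and pass on those that cannot be saved. HSP70 proteins bind and release their clients in a cycle driven by ATP; J-domain proteins such as Dnajb1 and Dnaja1 deliver the client and start the cycle, nucleotide exchange factors such as Hsph1 reset it, and HSP90 proteins finish the folding of kinases, receptors and transcription factors. Some of these genes are on in nearly every cell, and others are switched on by the heat shock factor HSF1 when unfolded proteins build up, for which it binds repeats of nGAAn, the heat shock element.

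Before the values, 4 promoters are shown because they carry, or in the case of Hspa5 carry in place of a heat shock element, the elements by which this family is usually divided. The RefSeq promoter table of build GRCm38.p6 matched 7 of the 10 genes with 11 windows, each from 250 bases before to 50 bases after an annotated start, and held no entry for Hspa8, Hsp90aa1 and Hsp90ab1. These coordinates are of GRCm38.p6 and not of mm9, the build that the submitters' processing notes name. The Hspa1a window lies at chr17:34972107-34972406 and the Hspa1b window at chr17:34959189-34959488, both on the minus strand; capitals mark a heat shock element of 2 units, GAANNTTC, which starts 104 bases before the start of both genes. The Hsph1 window lies at chr5:149636287-149636586 on the minus strand; capitals mark a heat shock element of 3 units, GAANNTTCNNGAA or its other strand TTCNNGAANNTTC, from 36 to 48 bases after the start. The Hspa5 window lies at chr2:34771840-34772139 on the plus strand; capitals mark an ER stress response element, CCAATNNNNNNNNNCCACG, from 65 to 47 bases before the start.
Hspa1a promoter: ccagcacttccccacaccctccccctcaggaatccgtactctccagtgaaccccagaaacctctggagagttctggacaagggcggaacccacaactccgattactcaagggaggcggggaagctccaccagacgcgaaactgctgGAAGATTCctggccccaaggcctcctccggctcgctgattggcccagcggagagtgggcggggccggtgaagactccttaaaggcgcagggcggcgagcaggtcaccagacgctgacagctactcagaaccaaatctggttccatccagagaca
Hspa1b promoter: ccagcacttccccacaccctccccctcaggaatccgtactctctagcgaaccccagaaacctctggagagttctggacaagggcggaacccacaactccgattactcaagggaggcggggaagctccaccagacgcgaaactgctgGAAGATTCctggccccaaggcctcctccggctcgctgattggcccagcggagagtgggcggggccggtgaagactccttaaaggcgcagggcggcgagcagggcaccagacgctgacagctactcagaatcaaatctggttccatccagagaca
Hsph1 promoter: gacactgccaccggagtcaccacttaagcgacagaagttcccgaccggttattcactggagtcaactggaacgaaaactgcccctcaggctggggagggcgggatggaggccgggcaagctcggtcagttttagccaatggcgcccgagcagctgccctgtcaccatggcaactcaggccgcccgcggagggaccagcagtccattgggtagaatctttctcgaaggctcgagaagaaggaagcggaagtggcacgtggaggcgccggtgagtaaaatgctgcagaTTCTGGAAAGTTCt
Hspa5 promoter: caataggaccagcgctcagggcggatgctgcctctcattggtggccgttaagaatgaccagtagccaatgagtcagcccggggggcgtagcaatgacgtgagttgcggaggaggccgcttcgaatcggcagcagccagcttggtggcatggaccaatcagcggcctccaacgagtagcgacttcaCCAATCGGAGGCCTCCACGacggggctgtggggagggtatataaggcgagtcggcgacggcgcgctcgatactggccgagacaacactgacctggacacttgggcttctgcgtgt

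Searched on both strands, the 3-unit heat shock element was found in 0.603% of all 32851 promoter windows of the table and, among the 7 genes, in Hsph1 alone. The 2-unit element GAANNTTC was found in 7.86% of all windows and in Dnaja1, Hspa1a, Hspa1b, Hspb1 and Hsph1, where the match in Hsph1 overlaps its 3-unit element. The other 2-unit form, TTCNNGAA, was found in 8.52% of windows and in Hsph1, where 1 of its 2 matches overlaps the 3-unit element. The ER stress response element was found in 0.119% of windows and, of the 7 genes, in Hspa5; it contains a CCAAT box, which 37.4% of all windows hold. The Dnajb1 window held none of the 3 heat shock element forms. These matches describe letters in the windows and not bound sites. The Hspa1a and Hspa1b windows share 296 of 300 bases.

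Expression was read by RNA sequencing, with 16873180 to 31737132 reads on genes per library. Levels are RPKM, that is, reads relative to the length of the gene and the size of the library. Comparisons between genes therefore depend on the deposited length, which was 2925 bases for Hspa1a, 5006 for Hspa1b, 7024 for Hsph1 and 8533 for Dnaja1. The reads behind every column of the RPKM table could be recovered, and for 8 of the 11 libraries they were the same as in the library's own count file. For the other 3 (replicate 2 of IS and replicate 1 of both other regions) the count file and the column named for the library held different reads: the file of caput/corpus replicate 1 held the reads of the IS replicate 2 column, the file of cauda replicate 1 held those of the caput/corpus replicate 1 column, and the file of IS replicate 2 equalled no column. All values below follow the named columns, and the results were repeated on the 8 libraries without a conflict and on the count files as filed. The library cauda replicate 1 also stood apart, with 13434 genes with a read against 17053 to 18837 in the other 10 libraries. Titles fall into the series Maj3 (5 libraries) and Maj4 (6 libraries), and this title series was a term of the model.

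The sorted cells carried macrophage transcripts in every library. The summed level of 8 macrophage markers, Cx3cr1 among them, was 7506 to 11265 RPKM in IS, 5460 to 9913 RPKM in caput/corpus and 4731 to 6770 RPKM in cauda. Cx3cr1, the receptor behind the sort, averaged 212 ± 30.5 RPKM in IS (SD, n = 4), 112 ± 31.8 RPKM in caput/corpus (SD, n = 3) and 83.6 ± 13.4 RPKM in cauda (SD, n = 4). Markers of other cells moved with region as well. The summed level of 7 mast cell markers was 25.9 to 99.0 RPKM in IS, 613 to 882 RPKM in caput/corpus and 876 to 3436 RPKM in cauda, and that of 6 dendritic cell markers was 162 to 365 RPKM in IS, 792 to 1116 RPKM in caput/corpus and 712 to 1581 RPKM in cauda. The sum of 12 markers of the epididymal epithelium ran the other way, with 940.1 to 2271 RPKM in IS, 209.6 to 379 RPKM in caput/corpus and 1.96 to 3.67 RPKM in cauda. In IS against caput/corpus, 7 of these 12 were called higher (edgeR, adjusted p under 0.05) and 1 lower, Lcn5, which averaged 1.31 against 65.6 RPKM. The other 4, Epcam, Krt8, Krt18 and Cdh1, were not called (edgeR adjusted p 0.723 to 0.986). Of the 6 dendritic cell markers, Flt3, Zbtb46, Cd209a and Clec10a were called lower in IS than in caput/corpus. Xcr1 and Itgae were not (edgeR adjusted p 0.321 and 0.968), and Itgae averaged 0.849 RPKM in IS and 0.684 RPKM in caput/corpus. By mean, Cd209a was the largest part of the dendritic cell sum, at 212 RPKM in IS and 705 RPKM in caput/corpus. S100a9 and Ly6g, which define neutrophils, were at 0 in all 11 libraries. The part that these marker differences have in the results below was not tested. In such bulk samples, fewer cells that express a gene and less RNA of it per cell cannot be told apart.

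A group of chaperone transcripts, most of them of stress-inducible forms, was lower in phagocytes of the IS than in those of either other region. Hspa1a, Hspa1b, Hsp90aa1, Hsp90ab1 and Dnajb1 fell in IS against caput/corpus, by 1.46-fold for Hsp90ab1 to 7.91-fold for Hspa1b, and the same 5 genes fell in IS against cauda, by 1.32-fold for Hsp90ab1 to 3.79-fold for Hspa1b. These folds are edgeR estimates with the title series in the model and are not ratios of mean levels. For Hspa1b the means were 59.2 RPKM in IS and 297 RPKM in caput/corpus. The call was an adjusted p under 0.05 in edgeR's quasi-likelihood test, with Benjamini-Hochberg adjustment over all 15116 genes tested. In IS against caput/corpus, 5 of 10 genes of the family were called, all lower in IS, where 3.74% of all genes were called and 2.95% were called lower. All 10 log2 fold changes were negative there, with a median of -1.08, against 0.03 over all genes tested. In IS against cauda, 5 of 10 were called, again all lower in IS, where 16.3% of all genes were called and 8.9% were called lower. Of the 10 log2 fold changes 7 were negative, with a median of -0.40, against 0.05 over all genes. Both comparisons share the IS libraries and are not independent of each other. The set was chosen with results of these data known, so these counts describe it.

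Between caput/corpus and cauda, 0 of 10 genes were called, where 0.615% of all genes were. Only Hspa8 had an unadjusted p under 0.05 in edgeR (0.0356), and DESeq2 and limma on log2(RPKM + 1) also called 0 of 10. All 10 log2 fold changes were positive, with a median of 0.47 against 0.02 over all genes, so the levels in caput/corpus were the higher ones without any of them passing the test. By mean level, 8 of the 10 genes had the order caput/corpus, cauda, IS, from high to low. Hspa5 had the order IS, caput/corpus, cauda, and Hspb1 the order caput/corpus, IS, cauda.

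**Figure D1:**
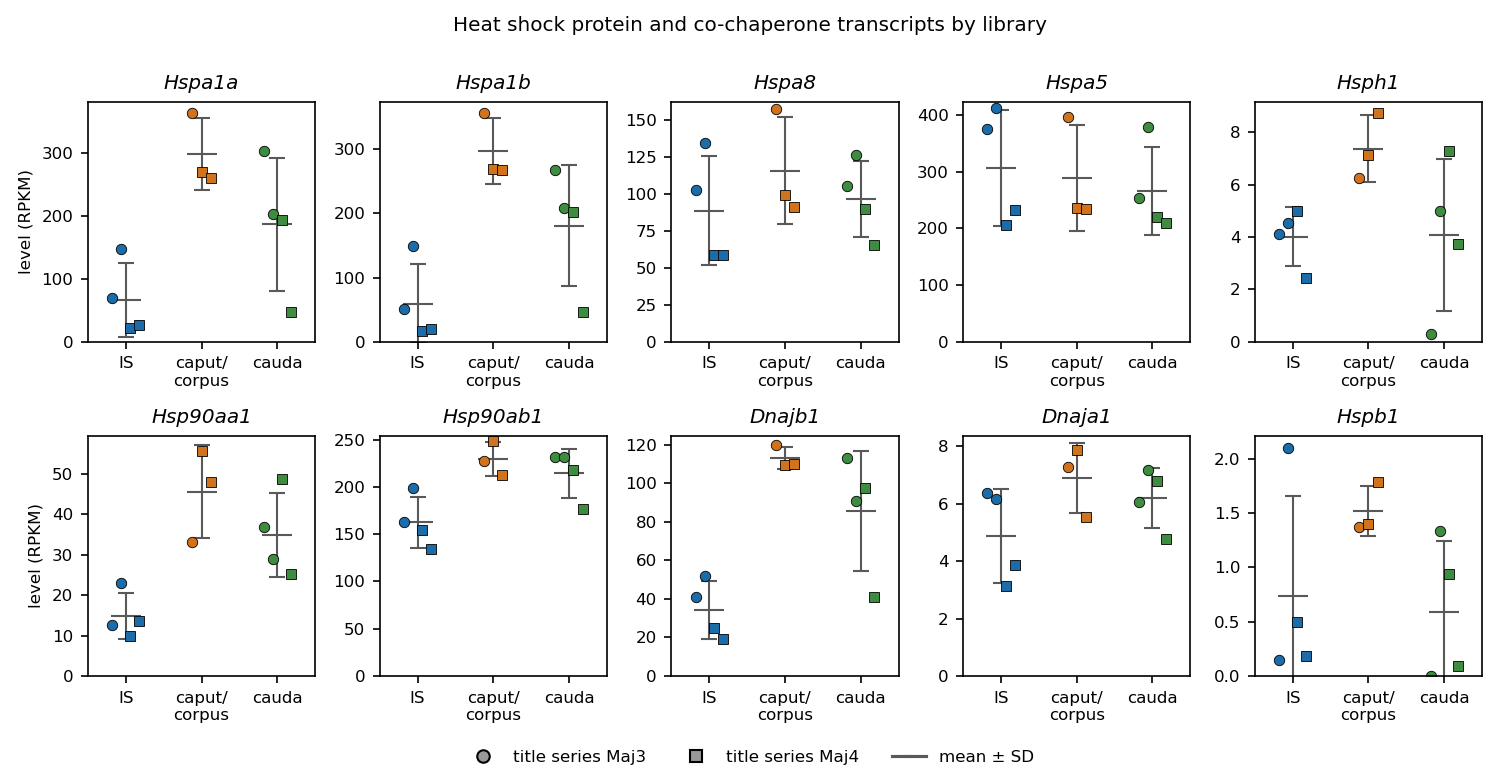
Level of each of the 10 transcripts in RPKM (linear axis from 0) in IS, caput/corpus and cauda; each point is a library, circles are title series Maj3 and squares Maj4, and bars are mean ± SD, with the lower end not drawn below 0. Hspa1a, Hspa1b, Hsp90aa1 and Dnajb1 sit low in IS, with Dnajb1 at 19.4 to 52.0 RPKM there and 109 to 120 RPKM in caput/corpus, while Hspa5 overlaps fully between regions.

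The inducible HSP70 genes had the largest log2 fold changes of the family in both comparisons with IS. Hspa1a, which encodes a cytosolic HSP70 made under stress, stood at 69.4, 148, 22.6 and 26.3 RPKM in the IS libraries, at 364, 270.1 and 260.4 RPKM in the caput/corpus libraries, and at 304, 202, 194 and 47.1 RPKM in the cauda libraries. The IS and caput/corpus libraries did not overlap, while cauda replicate 4, at 47.1 RPKM, lay below 2 of the 4 IS libraries. Hspa1a was 6.66-fold lower in IS than in caput/corpus (log2 fold change -2.74 ± 0.52 SE, adjusted p = 0.0171) and 3.27-fold lower in IS than in cauda (-1.71 ± 0.46, adjusted p = 0.0306). In caput/corpus against cauda its log2 fold change was 1.03 ± 0.49 (adjusted p = 0.454).

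Hspa1b, the neighbouring gene for almost the same protein, stood at 51.7, 149, 16.8 and 19.8 RPKM in IS, at 356, 269 and 267 RPKM in caput/corpus, and at 267, 208, 202 and 46.4 RPKM in cauda. Its libraries had the same order as those of Hspa1a within IS, and again only cauda replicate 4 fell among the IS values. Hspa1b was 7.91-fold lower in IS than in caput/corpus (log2 fold change -2.98 ± 0.60 SE, adjusted p = 0.0245) and 3.79-fold lower in IS than in cauda (-1.92 ± 0.54, adjusted p = 0.0356). In caput/corpus against cauda the log2 fold change was 1.06 ± 0.56 (adjusted p = 0.509). The split of reads between both genes is uncertain: in the GENCODE M21 transcripts their longest open reading frames share 1918 of 1926 aligned bases, with an identical run of 638 bases, and reads that align to more than 1 place are left out of these counts. The ratio of Hspa1a to Hspa1b RPKM was 1.34, 1.35 and 1.33 in IS replicates 1, 3 and 4, against 0.992 in IS replicate 2, 0.976 to 1.02 in caput/corpus and 0.961 to 1.14 in cauda. Hspa1a also overlaps exons of Gm20481 on the other strand in GENCODE M21, and the counting was not stranded.

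The J-domain protein Dnajb1, which brings clients to HSP70 and is itself induced by heat shock, stood at 40.8, 52.0, 24.9 and 19.4 RPKM in IS, at 119.5, 109 and 109.9 RPKM in caput/corpus, and at 113, 91.0, 97.5 and 41.0 RPKM in cauda. The caput/corpus libraries lay within 1.09-fold of each other, above all IS libraries, and cauda replicate 4 lay between IS replicates 1 and 2. Dnajb1 was 3.81-fold lower in IS than in caput/corpus (log2 fold change -1.93 ± 0.29 SE, adjusted p = 0.00667) and 2.59-fold lower in IS than in cauda (-1.37 ± 0.27, adjusted p = 0.00622). Its adjusted p in both comparisons was the smallest of the family. Dnaja1, a J-domain co-chaperone of the constitutive HSP70, had 3.14 to 6.37 RPKM in IS, 5.53 to 7.87 RPKM in caput/corpus and 4.78 to 7.16 RPKM in cauda. The groups overlapped, and neither comparison with IS was called (log2 fold change -0.62 ± 0.22 SE against caput/corpus, adjusted p = 0.181; -0.39 ± 0.20 against cauda, adjusted p = 0.224). Exons of Dnaja1 overlap those of Smu1 and Gm6297 on the other strand, which makes its unstranded counts uncertain.

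Of the cytosolic HSP90 pair, both forms fell in IS, and the log2 fold change was larger in size for the inducible form than for the constitutive form, a difference between genes that was not tested. Hsp90aa1, the form that is induced by stress, stood at 12.6, 22.9, 9.89 and 13.6 RPKM in IS, at 33.1, 55.6 and 48.1 RPKM in caput/corpus, and at 36.8, 28.8, 48.6 and 25.2 RPKM in cauda. Every IS library lay below every library of the other regions, and Hsp90aa1 was the only gene of the 10 to separate IS from cauda, where the levels of 7.95% of all genes separated in that direction. It was 3.09-fold lower in IS than in caput/corpus (log2 fold change -1.63 ± 0.33 SE, adjusted p = 0.0243) and 2.36-fold lower in IS than in cauda (-1.24 ± 0.30, adjusted p = 0.0185). Hsp90ab1, the constitutive form, stood at 163, 198, 154 and 134 RPKM in IS, at 227, 248 and 212 RPKM in caput/corpus, and at 231, 231, 218 and 176 RPKM in cauda. The IS and caput/corpus libraries did not overlap, and cauda replicate 4, at 176 RPKM, lay below IS replicate 2. Hsp90ab1 was 1.46-fold lower in IS than in caput/corpus (log2 fold change -0.54 ± 0.13 SE, adjusted p = 0.0438) and 1.32-fold lower in IS than in cauda (-0.40 ± 0.12, adjusted p = 0.0404).

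Hspa8, the HSP70 of unstressed cells that also uncoats clathrin vesicles, stood at 103, 134, 58.7 and 59.0 RPKM in IS, at 157, 99.1 and 91.0 RPKM in caput/corpus, and at 105, 126, 89.9 and 65.3 RPKM in cauda. The regions overlapped, and within each region the Maj3 libraries were the higher ones. Its log2 fold change was -0.55 ± 0.15 (SE) in IS against caput/corpus, which did not pass the test (adjusted p = 0.0889). It did pass with DESeq2 (adjusted p = 0.0215), with limma on log2(RPKM + 1) (adjusted p = 0.0494), on the 8 libraries without a source conflict (edgeR, adjusted p = 0.0435), and in edgeR without IS replicate 2, cauda replicate 1 or cauda replicate 3 (adjusted p = 0.0410, 0.0329 and 0.0458). Against cauda the log2 fold change was -0.18 ± 0.14 (adjusted p = 0.452).

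Hspa5 is the HSP70 of the endoplasmic reticulum and a target of the unfolded protein response. By mean level over all libraries, though not within caput/corpus, it was the most abundant of the 10. It did not follow the inducible genes. It stood at 375, 412, 206 and 232 RPKM in IS, at 396, 236 and 233 RPKM in caput/corpus, and at 253, 378, 220.2 and 209 RPKM in cauda. The ranges of the 3 regions overlapped almost entirely. Its log2 fold change was -0.05 ± 0.14 (SE) in IS against caput/corpus (adjusted p = 0.960) and 0.17 ± 0.13 in IS against cauda (adjusted p = 0.418).

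The remaining genes were expressed at low levels. Hsph1, an HSP110 protein that exchanges the nucleotide of HSP70, had 4.12, 4.55, 5.00 and 2.42 RPKM in IS, 6.24, 7.12 and 8.75 RPKM in caput/corpus, and 0.305, 4.98, 7.27 and 3.72 RPKM in cauda. The IS and caput/corpus libraries did not overlap, which made Hsph1 the sixth gene of the family to separate them, where 7.51% of all genes separated in that direction. Its log2 fold change of -0.77 ± 0.70 (SE) was not called (adjusted p = 0.746), and in cauda the library that stood apart, replicate 1, held only 61 reads of it against 598 to 1021 in the other 3 libraries. Hspb1, a small heat shock protein that keeps unfolded proteins from clumping, had 0.151 to 2.10 RPKM in IS, 1.38 to 1.79 RPKM in caput/corpus and 0 to 1.34 RPKM in cauda, from at most 78 reads in a library. Its caput/corpus libraries lay above those of cauda, as did the levels of 6.52% of all genes, and none of its 3 comparisons was called (log2 fold change -1.39 ± 1.46 SE in IS against caput/corpus, adjusted p = 0.799; 0.16 ± 1.31 in IS against cauda, adjusted p = 0.952; 1.54 ± 1.40 in caput/corpus against cauda, adjusted p = 0.745).

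**Figure D2:**
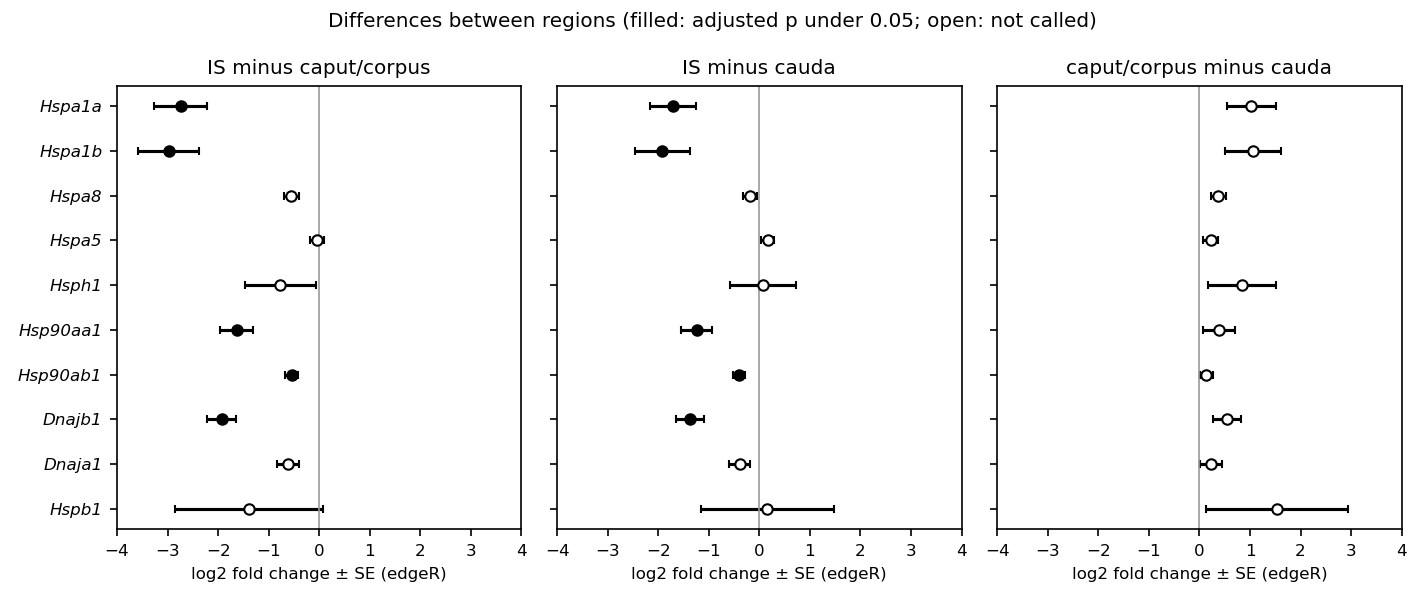
Log2 fold change ± SE from edgeR for the 10 genes in IS minus caput/corpus, IS minus cauda and caput/corpus minus cauda; filled points have an adjusted p under 0.05 and open points do not. The same 5 genes are filled in both comparisons with IS, all left of 0, and none is filled in the third panel.

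In both the HSP70 and the HSP90 genes, the inducible forms made up a smaller share of the cytosolic total in IS than in caput/corpus, given here as a description with no test. Hspa1a and Hspa1b together made up 54.1%, 68.8%, 40.2% and 43.8% of the summed RPKM of Hspa1a, Hspa1b and Hspa8 in the IS libraries, 82.1%, 84.5% and 85.3% in the caput/corpus libraries, and 84.4%, 76.5%, 81.5% and 58.9% in the cauda libraries. All caput/corpus shares lay above all IS shares, and cauda replicate 4 lay between IS replicates 1 and 2. The mean share was 51.7% ± 12.8 in IS (SD, n = 4), 83.9% ± 1.67 in caput/corpus (SD, n = 3) and 75.3% ± 11.5 in cauda (SD, n = 4). Of the summed RPKM of Hsp90aa1 and Hsp90ab1, Hsp90aa1 made up 7.17%, 10.4%, 6.03% and 9.22% in the IS libraries, 12.7%, 18.3% and 18.4% in those of caput/corpus, and 13.7%, 11.1%, 18.2% and 12.5% in those of cauda. Each IS share was below each share of the other regions, although cauda replicate 2 exceeded IS replicate 2 by under 1 percentage point. The mean share was 8.19% ± 1.95 in IS (SD, n = 4), 16.5% ± 3.26 in caput/corpus (SD, n = 3) and 13.9% ± 3.09 in cauda (SD, n = 4). These shares are ratios within a library, so they do not depend on how libraries were scaled to each other. They do depend on the gene lengths used, and the HSP70 share leaves out reads that Hspa1a and Hspa1b have in common.

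**Figure D3:**
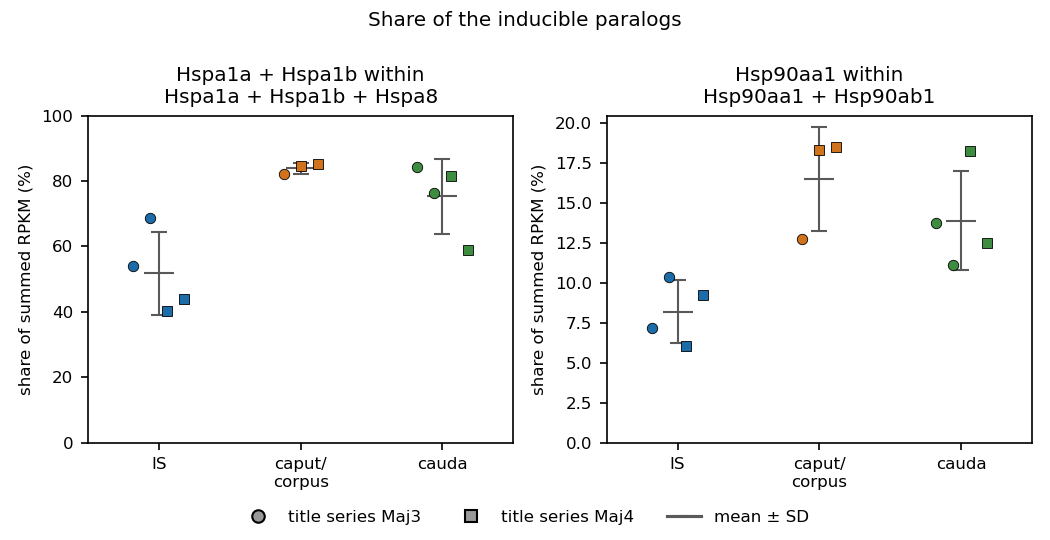
Share of the inducible paralogs in summed RPKM (percent, axes from 0) in IS, caput/corpus and cauda: Hspa1a plus Hspa1b within Hspa1a, Hspa1b and Hspa8 on the left, and Hsp90aa1 within Hsp90aa1 and Hsp90ab1 on the right; points are libraries, circles Maj3 and squares Maj4, and bars are mean ± SD. IS libraries hold 40.2% to 68.8% inducible HSP70 and the caput/corpus libraries 82.1% to 85.3%.

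Levels also differed between the title series, for about as large a share of the family as of all genes. In the same fit, and chosen after the values had been seen, Maj3 libraries were above Maj4 libraries for Hspa5 (log2 fold change 0.71 ± 0.11 SE, adjusted p = 0.00175), Hspa8 (0.78 ± 0.12, adjusted p = 0.00197) and Hspa1a (1.34 ± 0.40, adjusted p = 0.0410). These were 3 of 10 genes, all higher in Maj3, where 20.7% of all genes were called and 10.2% were called higher in Maj3. Of these, Hspa1a was also called between regions. What Maj3 and Maj4 stand for is not in the labels. The share of reads that were not uniquely aligned was 27.6% to 35.8% in the Maj3 count files and 12.5% to 14.7% in those of Maj4. The 35.8% is that of the file that equals no column, and the cauda replicate 1 column, also Maj3, has no count file. The part of this share in the differences between series was not tested. Without the series term in the model, Hspa1a and Hspa1b were no longer called against caput/corpus (log2 fold changes -2.17 and -2.33, adjusted p = 0.188 and 0.195) or against cauda (-1.49 and -1.61, adjusted p = 0.173 and 0.176), nor was Hsp90ab1 (adjusted p = 0.246 and 0.139). Within series the inducible genes kept their direction. On Maj4 libraries alone, where 440 of all genes were called in IS against caput/corpus and 266 of these were lower, edgeR called 4 of the 10 genes lower. They were Hspa1a, Hspa1b, Hsp90aa1 and Dnajb1 (log2 fold changes -3.43, -3.86, -2.13 and -2.30, edgeR adjusted p = 0.0330, 0.0267, 0.0236 and 0.0293). On Maj3 libraries alone, with a single caput/corpus library that is assumed to vary like the other groups, the same log2 fold changes were -1.77, -1.86, -0.93 and -1.39, and none was called. Against cauda, the Maj4 libraries gave -2.28, -2.75, -1.63 and -1.63 for these 4 genes, with Hspa1a no longer called (adjusted p = 0.0509), and the Maj3 libraries gave -1.20, -1.22, -0.87 and -1.12, with none called.

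The calls differed in how far they rested on single libraries. Dnajb1 was called in all 11 fits that left out 1 library, in both comparisons with IS, with adjusted p of at most 0.0348 against caput/corpus and 0.0267 against cauda. Against caput/corpus, Hspa1a, Hspa1b and Hsp90aa1 lost the call when any of IS replicates 1, 3 and 4 or of caput/corpus replicates 2 and 3 was left out; the adjusted p was then 0.0591 to 0.0835 for Hspa1a, 0.0761 to 0.110 for Hspa1b and 0.0743 to 0.0986 for Hsp90aa1. Their log2 fold changes stayed between -3.14 and -2.49, between -3.51 and -2.66, and between -1.93 and -1.41. Hsp90ab1 kept the call only without IS replicate 2 or cauda replicate 1, and reached an adjusted p of 0.159 in the other 9 fits. Against cauda, the call was lost by Hspa1a without cauda replicate 3 or any of IS replicates 1, 3 and 4 (adjusted p 0.0739 to 0.104), and by Hsp90aa1 without any of those 3 IS libraries (0.0575 to 0.0621). Hspa1b lost it without any of them, or of replicates 2 and 3 of caput/corpus and of cauda (0.0510 to 0.117), and Hsp90ab1 without any of them, replicate 3 of caput/corpus, or replicates 2 and 3 of cauda (0.0602 to 0.115). No sign changed for these 5 genes in any of these fits.

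**Figure D4:**
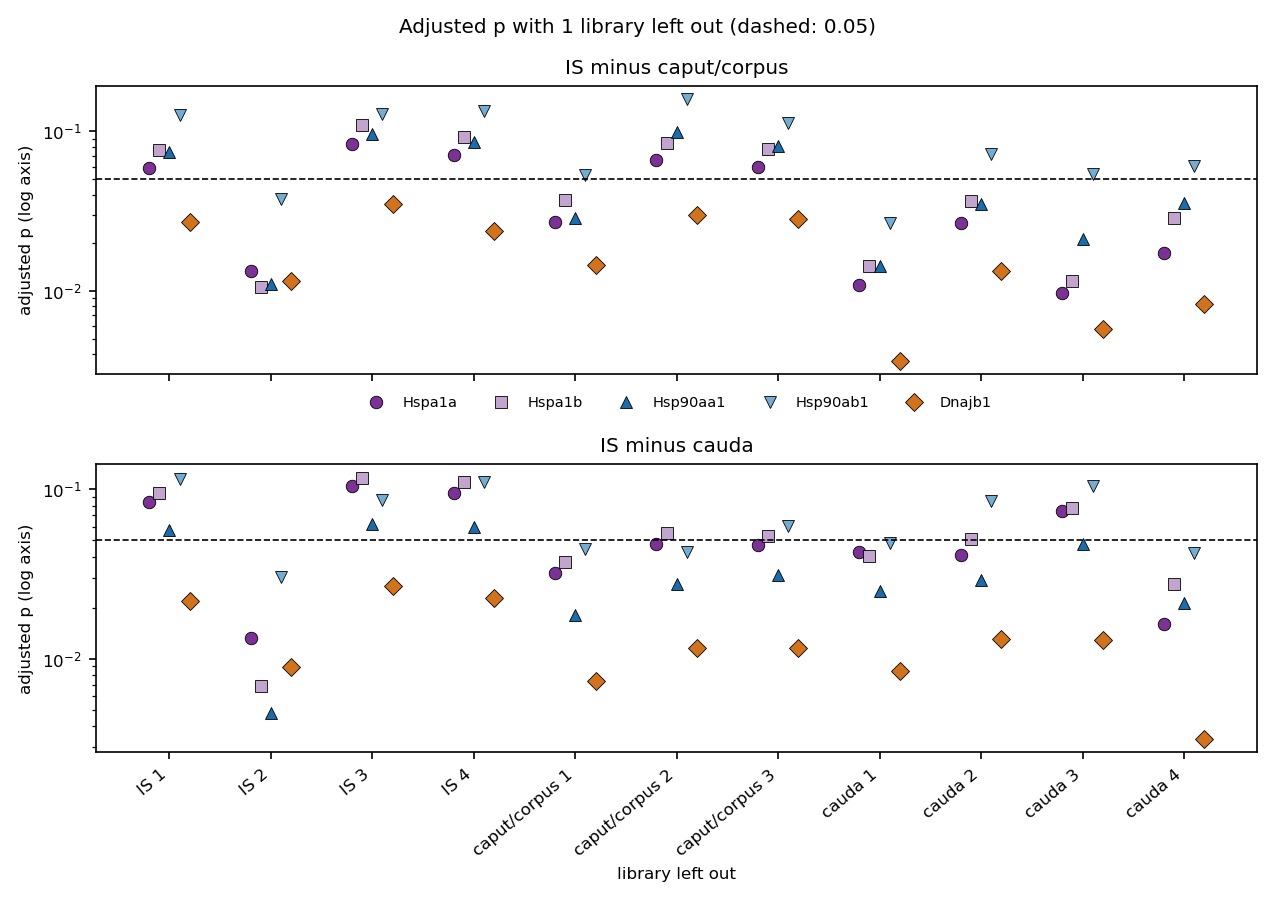
Adjusted p from edgeR (log axis) of the 5 called genes in IS minus caput/corpus (top) and IS minus cauda (bottom) when the library named on the horizontal axis is left out; the dashed line is 0.05. Dnajb1 stays under the line in all 11 fits of both panels, with a highest value of 0.0348, and the other 4 genes rise above it without IS replicates 1, 3 or 4.

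The result also depended on which source names 3 of the libraries. On the 8 libraries without a conflict, edgeR called Hspa1a, Hspa1b, Hspa8, Hsp90aa1, Hsp90ab1 and Dnajb1 lower in IS than in caput/corpus and the same 5 genes as before lower in IS than in cauda, with log2 fold changes of -3.30 for Hspa1a and -2.22 for Dnajb1 against caput/corpus. Of all genes, 933 were called against caput/corpus on these 8 libraries, 560 of them lower in IS. Without cauda replicate 1, the library with fewer genes, all 5 genes were still called against cauda. With the count files as filed, none of the 10 genes was called in any comparison, and in IS against caput/corpus 0 of all genes were called. Dnajb1 then had an edgeR log2 fold change of 0.50 in IS against caput/corpus (adjusted p = 0.945) and Hspa1a one of -0.95 (adjusted p = 0.870). As filed, the reads of the IS replicate 2 column count as caput/corpus and those of the caput/corpus replicate 1 column as cauda. The 12 epithelial markers summed to 2271 RPKM in the first of these columns and to 379 RPKM in the second. In the other named columns they summed to 940 to 1794 RPKM in IS, 210 to 212 RPKM in caput/corpus and 1.96 to 3.67 RPKM in cauda. Which source is right was not tested.

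The other chaperone genes were called no more often than genes in general. Of 84 further genes tested from 8 lists of chaperones and their regulators, edgeR called 0 higher and 1 lower in IS against caput/corpus (1.19%), 2 higher and 4 lower in IS against cauda (7.14%), and 0 in caput/corpus against cauda, where 3.74%, 16.3% and 0.615% of all genes were called. Their median log2 fold changes were -0.04, -0.02 and -0.02, against 0.03, 0.05 and 0.02 over all genes. None of the 24 genes for chaperones of the endoplasmic reticulum and the unfolded protein response was called in any comparison, with 1, 2 and 1 of them at an unadjusted p under 0.05 in edgeR. Likewise 0 of 9 factors for HSP70 nucleotide exchange and client handling and 0 of 3 heat shock factors and regulators were called, with at most 2 at an unadjusted p under 0.05. The exception against caput/corpus was Hspe1, the lid of the mitochondrial chaperonin, at 9.07, 13.0, 8.30 and 6.98 RPKM in IS, 22.6, 28.5 and 22.0 RPKM in caput/corpus and 16.0, 15.0, 20.2 and 7.81 RPKM in cauda. It was lower in all IS libraries than in all caput/corpus libraries (log2 fold change -1.44 ± 0.32 SE, adjusted p = 0.0357), and its log2 fold change against cauda was -0.67 ± 0.29 (adjusted p = 0.155).

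Against cauda, 3 of 10 chaperonin genes were called lower in IS, where 8.9% of all genes were, and 6 had an unadjusted p under 0.05 in edgeR. The 3 called genes encode subunits of the cytosolic chaperonin, which folds actin and tubulin. Cct5 averaged 67.0 ± 15.5 RPKM in IS (SD, n = 4) and 101 ± 28.6 RPKM in cauda (SD, n = 4; log2 fold change -0.58 ± 0.09 SE, edgeR adjusted p = 0.00251), and Cct2 averaged 39.6 ± 2.44 RPKM in IS and 59.8 ± 9.56 RPKM in cauda (-0.59 ± 0.13, adjusted p = 0.0133). Dnajc2, a J-domain protein of the ribosome, had a log2 fold change of -0.53 ± 0.14 (adjusted p = 0.0309). Fkbp5, an HSP90 co-chaperone that glucocorticoids and androgens induce, was higher in IS, at 5.80, 9.38, 8.81 and 5.74 RPKM there and 2.67, 2.11, 3.58 and 2.42 RPKM in cauda, with no overlap (log2 fold change 1.48 ± 0.23, adjusted p = 0.00190). Hspa12a, a distant HSP70 relative, was higher in IS too (adjusted p = 0.0155) but stayed under 0.378 RPKM in every library.

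Immediate early genes, transcription factors and regulators that cells switch on quickly after many kinds of stimulus, were also lower in IS. Of 20 such genes, 16 were called lower in IS than in caput/corpus and 18 lower than in cauda, where 2.95% and 8.9% of all genes were called lower. Between caput/corpus and cauda 0 were called (3 at an unadjusted p under 0.05 in edgeR), where 0.615% of all genes were. The medians of their log2 fold changes in the 3 comparisons were -1.08, -1.11 and 0.10. Their summed level was 3579 to 7340.1 RPKM in IS, 7785 to 10737.5 RPKM in caput/corpus and 5396 to 13527 RPKM in cauda. The lowest cauda library was replicate 4 for this sum as it was for Hspa1a, Hspa1b, Hspa8, Hspa5, Hsp90aa1, Hsp90ab1, Dnaja1 and Dnajb1. Fosb, an AP-1 subunit, averaged 6.23 ± 2.34 RPKM in IS (SD, n = 4), 30.8 ± 10.6 RPKM in caput/corpus (SD, n = 3) and 34.6 ± 9.66 RPKM in cauda (SD, n = 4). Klf2, a zinc finger factor that restrains inflammatory genes, averaged 78.0 ± 8.52 RPKM in IS, 169 ± 23.6 RPKM in caput/corpus and 210.2 ± 36.6 RPKM in cauda. Fos, the partner of Jun in AP-1, averaged 697 ± 333 RPKM in IS, 1263 ± 287 RPKM in caput/corpus and 1534 ± 704 RPKM in cauda. Against caput/corpus and against cauda, edgeR gave adjusted p of 0.00612 and 0.000541 for Fosb, 0.00438 and 0.000162 for Klf2, and 0.0199 and 0.00403 for Fos. Ier2 and Zfp36 were called lower in IS in both comparisons as well, while Junb was called against cauda (adjusted p = 0.0412) but not against caput/corpus (adjusted p = 0.06). The part of these genes in the chaperone levels was not tested.

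Other genes with a mean of at least 10 CPM (counts scaled to library size) numbered 9045. Among these, the genes whose log2 level followed the family most closely over the 11 libraries were picked by Pearson correlation. This is a description with no test, since the libraries differ in region, series and depth. The mean of the 10 genes was followed by Pcbp1 (r = 0.94), Hspe1 (0.93), Ccl7 (0.91), Ppp1r15a (0.88) and Ccl2 (0.88), of which Ccl2 and Ccl7 encode chemokines that draw monocytes and Ppp1r15a a phosphatase subunit that restarts translation after stress. Hspa1a and Hspa1b were each nearest to Ppp1r15a (0.95) and Dnajb1 to Gadd45b (0.94). Hsp90aa1 was nearest to the nuclear receptor gene Nr4a2 (0.94). Hspa5 was nearest to Pole4 (0.97), which averaged 25.5 RPKM in IS, 26.0 RPKM in caput/corpus and 25.0 RPKM in cauda. The nearest genes of Hsp90ab1, Hsph1, Dnaja1 and Hspb1 were Supt4h1 (0.95), C1qtnf1 (0.96), Nip7 (0.93) and Penk (0.92).

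The count file that equals no column, filed under IS replicate 2, held the highest level of all 10 genes. Scaled to its 30383072 reads, Dnajb1 stood at 2821 CPM in that file, against 51.5 to 125 in the IS libraries, 272 to 286 in the caput/corpus libraries and 103 to 267 in the cauda libraries. Hspa1a stood at 3790.3 CPM against at most 1008 CPM in any of the 11 libraries, and Hspa1b at 6409 CPM against at most 1688 CPM. The ratio to the highest of the 11 libraries was 9.86 for Dnajb1, 9.78 for Hsph1, 9.48 for Hspb1, 7.40 for Dnaja1, 4.22 for Hsp90ab1, 3.796 for Hspa1b, 3.76 for Hspa1a, 3.10 for Hsp90aa1, 3.10 for Hspa8 and 2.05 for Hspa5. Hsph1 and Dnaja1, which were not called between regions, were thus among the genes that stood furthest out in this file. It is a single file with no replicate and entered no comparison other than that of the counts as filed.

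**Figure D5:**
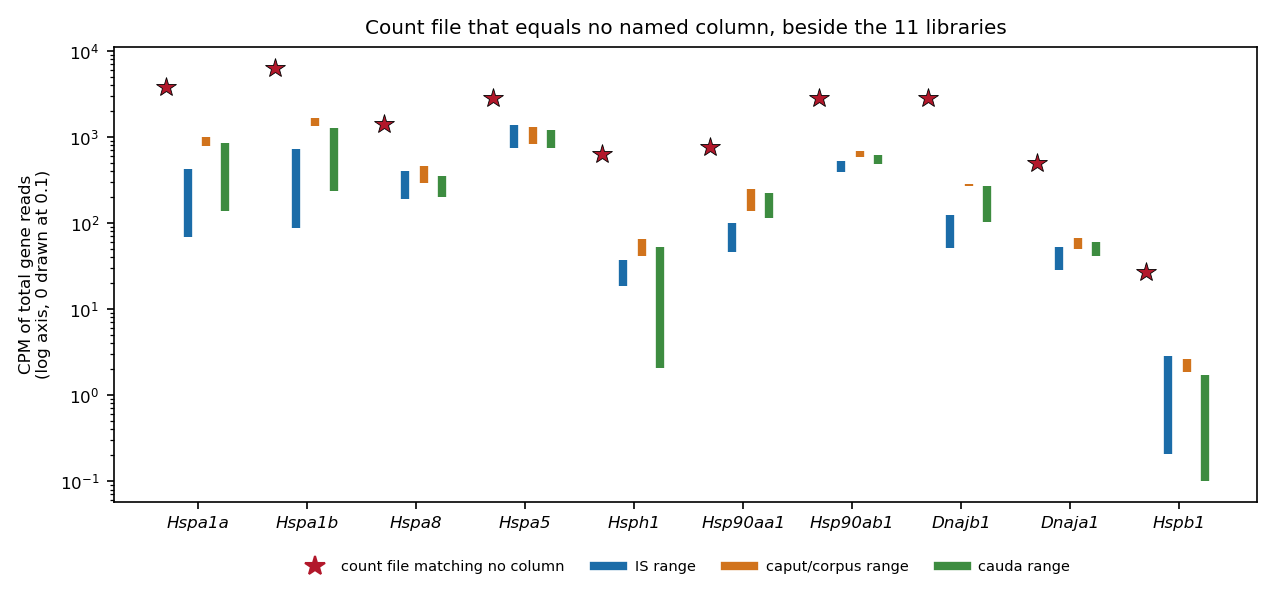
CPM of gene reads (log axis, 0 drawn at 0.1) of the 10 genes in the count file that equals no named column (star) and the range over the IS, caput/corpus and cauda libraries (bars). The star lies above every bar for all 10 genes, from 2.05 times the highest library for Hspa5 to 9.86 times for Dnajb1.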

How the data were processed

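RNA was sequenced from EGFP+ CX3CR1+ cells of 3 epididymal regions in 11 libraries, prepared with a SMARTer v4 kit per the labels. The submitters' processing notes name STAR, HTSeq, edgeR and the build mm9, without versions or settings. The authors deposited whole read counts per Ensembl gene for each sample, unstranded by the file names, and 1 table of RPKM values (reads scaled by gene length and effective library size). RPKM multiplied by the deposited gene length came out as whole multiples of 1 step per library (tolerance 0.001) for all 37583 genes in all 11 columns. The reads recovered in this way were identical to a deposited count file for 10 columns, and for cauda replicate 1 rest on the RPKM column alone. The test for counts was therefore used although the main table holds RPKM. Of HTSeq's reads, the share that was not unique was 12.5% to 35.8%, that outside genes 7.75% to 24.8%, and that on several genes 1.74% to 2.12%; these stayed out of all totals.

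Region comparisons used the quasi-likelihood test of edgeR 4.0.16 in R 4.3.3 on all 11 libraries in 1 fit, with title series as a covariate, TMM factors and filterByExpr by region, which left 15116 genes and all 10 chaperone genes. Adjusted p is Benjamini-Hochberg over these genes, the threshold 0.05, and the SE is the log2 fold change over the square root of F. The scripts were tested on simulated counts. Alternatives used DESeq2 1.42.0, limma 3.58.1 on log2(RPKM + 1) and log2(RPKM + 0.1), DESeq2 size factors, no filter, no series term, a replicate block, each series alone, the counts as filed, the 8 libraries without a conflict, robust spread, and each library left out.

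The genes and lists were chosen with earlier results of these data known. Named besides the 10 genes are, from each list, the called genes with the 3 smallest p, the 3 most abundant immediate early genes, and the nearest genes by correlation, of which that of Hspa8 is not reported here. Of 180 listed genes 179 were found; Hspa14 has 2 identifiers and was left out. Promoters are RefSeq's, motifs were searched with Python 3.11.15, and open reading frames come from GENCODE M21.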

Additional observations from a re-analysis of the deposited data

Results flagged for a closer look

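A signal appears in data that the comparisons of regions do not use. The count file under IS replicate 2 that equals no column of the RPKM table held Hspa1a at 3790.3 CPM, Hspa1b at 6409 CPM and Dnajb1 at 2821 CPM, each above every one of the 11 libraries. Of 9058 genes with a mean of at least 10 CPM in the 11 libraries, 462 (5.10%) were above the highest library in this file and 115 (1.27%) exceeded it more than 2-fold. All 9 chaperone genes of the family with that mean level were among the 115. All 20 immediate early genes were above the highest library and 13 of them more than 2-fold, with Egr1 at 8392 CPM against at most 1917 CPM and Atf3 at 7068 CPM against at most 1348 CPM.

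Genes of the further chaperone lists exceeded the highest library more than 2-fold in 1 of 12 DnaJ co-chaperones (Dnajb4, 149.9 CPM against at most 27.7 CPM), 1 of 8 HSP70 exchange and client handling factors (Bag3, 258 against 45.0 CPM), 1 of 5 further HSP70 genes (Hspa2, 39.2 against 15.7 CPM), 2 of 10 chaperonins (Hspe1, 158 against 44.9 CPM, and Hspd1, 109 against 52.0 CPM), 3 of 23 ER chaperone and unfolded protein response genes, and 0 of 12 HSP90 co-chaperones. By ratio to the highest library, Dnajb1 ranked 3, Hsph1 4 and Dnaja1 6 among the 9058 genes, behind Id3 and Ifrd1, named here after their values were seen. The file's mast cell marker sum was 572 CPM, against 40.8 to 119 CPM in IS, 808 to 1122 CPM in caput/corpus and 1128 to 3845 CPM in cauda, and its epididymal epithelium sum was 281 CPM, against 1181 to 2649 CPM in IS, 284 to 484 CPM in caput/corpus and 3.42 to 6.22 CPM in cauda. The file's macrophage marker sum was 8901 CPM, against 12682 to 15976 in IS, 8767 to 13612 in caput/corpus and 6478 to 9155 in cauda. Its dendritic cell sum was 1268 CPM, against 347 to 672 in IS, 1561 to 1871 in caput/corpus and 1430 to 2689 in cauda. Which region the file comes from was not tested.

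The check for a single library far from its group, run on the 10 genes in IS and in cauda (20 checks, as caput/corpus has 3 libraries), found none. With 4 libraries per group it cannot show that no library deviates. Hsph1, for instance, stood at 0.305 RPKM in cauda replicate 1 and at 3.72 to 7.27 RPKM in the other cauda libraries.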

How the results depend on the processing

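Counts of the 10 chaperone genes called in IS against caput/corpus and in IS against cauda, 5 and 5 in the report, became 2 and 2 (Hsp90aa1 and Dnajb1 both times) without the series term, 3 and 3 with the replicate block, 0 and 0 on Maj3 alone and 0 and 0 on the counts as filed; Maj4 alone gave 3 against cauda. With the replicate block Hspa1a, Hspa1b and Dnajb1 were called against caput/corpus and Hsp90aa1, Hsp90ab1 and Dnajb1 against cauda. Deviations of the 10 same-numbered pairs correlated between -0.265 and 0.317, and those of differently numbered pairs between -0.556 and 0.146. These ranges overlap and cannot tell whether samples of the same number share animals. Leaving out 1 library gave 1 to 6, 1 to 5 and, between caput/corpus and cauda, 0 to 0. All genes called in IS against caput/corpus numbered 566, of which 446 were lower; DESeq2 gave 1262 (795 lower), no series term 225 (185 lower), Maj3 alone 0, the counts as filed 0 (408 and 1173 at an unadjusted p under 0.05 in edgeR), the 8 libraries without a conflict 933 (560 lower) and limma on log2(RPKM + 1) 934 (614 lower), with 244 to 1352 when 1 library was left out. In IS against cauda 2467 became 1467 without the series term, 1120 on Maj4, 45 on Maj3 and 4 on the counts as filed, with 1624 to 3130 when 1 library was left out. Between caput/corpus and cauda 93 became 637 with DESeq2, 184 without a filter, 40 with the replicate block, 28 on Maj4, 5 on Maj3, 0 on the counts as filed (998 at an unadjusted p under 0.05), 52 on the 8 libraries, and 143 and 188 with limma at pseudocounts of 1 and 0.1, with 29 to 207 when 1 library was left out. On the counts as filed, called values changed sign for Hsp90ab1 (0.46) and Dnajb1 (0.50) against caput/corpus, and for Hspa1a (0.10), Hsp90aa1 (0.44), Hsp90ab1 (0.70) and Dnajb1 (1.15) against cauda, as log2 fold changes; there the reads of 2 libraries change group, those of the cauda replicate 1 column drop out, and the file that equals no column enters IS. For the other settings the cause was not tested. Over single genes, 306 of 360 values kept direction and side of the threshold in the 12 alternatives, and 275 of 330 when 1 library was left out; a further 15 and 8 stayed uncalled with the other sign, the 8 being Hspa5 against caput/corpus and Hsph1 and Hspb1 against cauda. Hspb1 rests on at most 78 reads in a library, and its differences were not detectable at this depth and spread.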

Other observations

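The level of the inducible genes, and of constitutive ones as well, varied more between libraries in IS and cauda than in caput/corpus. The highest library exceeded the lowest 6.52-fold in IS, 1.40-fold in caput/corpus and 6.45-fold in cauda for Hspa1a, and 2.69-fold, 1.09-fold and 2.75-fold in the same regions for Dnajb1. For the constitutive Hsp90ab1 the same spread was 1.48-fold, 1.17-fold and 1.31-fold, and for the constitutive Hspa8 it was 2.29-fold, 1.73-fold and 1.93-fold. Caput/corpus has 3 libraries, of which 1 is of the series Maj3, and the other regions have 4 each, of which 2 are of Maj3. The difference in spread was not tested. By mean RPKM over the 11 libraries, Hspa5 ranked 129 among all genes of the table, Hsp90ab1 203, Hspa1a 242 and Hspa1b 250, while Dnaja1 ranked 6958, Hsph1 7530 and Hspb1 11888.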
